A study of Mus musculus with 2 samples.

Results

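The respiratory chain genes are the genes whose symbols begin with Nduf, Uqc, Cox4 to Cox8 or Atp5, the complex II genes Sdha to Sdhd, and the protein-coding genes of the mitochondrial genome. They were chosen by their name and by a measured value, a sum of 30 or more unique molecular identifiers (UMIs) over both libraries, counted in barcodes that held 1354 UMIs and 200 genes or more and whose mitochondrial share did not exceed 50%. Of 110 matching symbols 105 passed, 92 nuclear and 13 mitochondrial, out of 15453 genes with that many UMIs. The members of fewest UMIs were Cox6a2 with 564, Ndufaf6 with 794 and Cox6b2 with 1291, and below the minimum lay Ndufa4l2 with 11, Cox4i2 with 4, Cox8b and Cox8c with 1 each and Cox7b2 with 0. The study compared sorted EpCAM+ 7-AAD- intestinal epithelial cells of WT mice and of mice that overexpress MG53 throughout the body (MG53-TG), all given 2.5% dextran sulfate sodium (DSS), which injures the gut lining, until day 7. Both groups therefore carried the injury, and no untreated group was compared here. There was 1 library of each genotype, so every difference below is between these libraries, without a replicate check, and intervals are exact 95% intervals that cover counting error only. Ages and sexes are not given in the labels. The study names several mice of each genotype for this experiment, with WT as littermates, but how they were pooled into the libraries is not given in the sources used here, and cells cannot be told apart by mouse.

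The respiratory chain passes electrons from NADH through complex I, or from succinate through complex II, to complex III, cytochrome c and complex IV, where oxygen is reduced, and the proton gradient so built drives the ATP synthase. Complexes I, III, IV and the ATP synthase are assembled from products of both genomes, whereas complex II is encoded in the nucleus alone. The epithelium renews itself from crypt stem cells, whose absorptive daughters become enterocytes, cells that absorb nutrients at high energy cost, and whose secretory daughters become goblet, Paneth, enteroendocrine and tuft cells. The nuclear members comprised 7 core and 30 accessory subunits of complex I, 4 subunits of complex II, 8 of complex III, 15 of complex IV, 17 of the ATP synthase and 11 assembly factors. The mitochondrial members comprised 7 subunits of complex I, 1 of complex III, 3 of complex IV and 2 of the ATP synthase. Cyc1, a further subunit of complex III, has a symbol outside the rule and was not a member.

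Some sequences bear on how the values can be read. The reading frames of mt-Atp8 and mt-Atp6 share 43 bases of the mitochondrial chromosome (GENCODE M21 transcripts, GRCm38), so that a read within them fits both genes. The stretch is shown 5′ to 3′ with the first codon of mt-Atp6 in capitals.
mt-Atp8 and mt-Atp6 overlap, chrM:7927-7969, plus strand: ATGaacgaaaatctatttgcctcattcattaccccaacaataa
The frames of mt-Nd4l and mt-Nd4 share 7 bases. The counting rule for such reads is not given in the sources used here, and the low shares of mt-Atp8 and mt-Nd4l below are uncertain to that extent. For the nuclear members, 3 promoters are shown, those of Cox7a1 and Cox7a2, the tissue-restricted and common forms of a complex IV subunit that differed most between cell types, and that of Atp5g2, which was lowest in cells of high mitochondrial share. Each run is the 200 bases before the start of the gene in RefSeq, build GRCm38.p6, and capitals mark letters of the motifs that were searched.
Cox7a1, chr7:30183971-30184170, plus strand: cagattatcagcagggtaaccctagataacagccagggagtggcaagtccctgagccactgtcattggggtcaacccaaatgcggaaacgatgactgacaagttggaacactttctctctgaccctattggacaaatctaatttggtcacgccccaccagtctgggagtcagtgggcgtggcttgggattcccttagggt
Cox7a2, chr9:79759854-79760053, minus strand: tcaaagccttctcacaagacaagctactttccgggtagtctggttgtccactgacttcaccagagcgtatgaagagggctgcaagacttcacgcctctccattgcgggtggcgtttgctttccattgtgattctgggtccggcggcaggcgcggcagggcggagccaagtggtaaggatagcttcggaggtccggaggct
Atp5g2, chr15:102671048-102671247, minus strand: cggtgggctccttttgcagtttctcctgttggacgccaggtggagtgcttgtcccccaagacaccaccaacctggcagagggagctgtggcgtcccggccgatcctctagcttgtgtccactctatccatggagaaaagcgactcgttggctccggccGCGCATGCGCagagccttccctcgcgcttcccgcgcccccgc
The letters GCATGCGC, a core of the site of NRF1, a regulator of nuclear respiratory genes, were searched on both strands over 300 bases from 250 before to 50 after the start. They lay in 12 of the 76 nuclear members with a promoter entry (15.8%), against 2.80% of all 27025 promoters of that length. The letters AAGATGGC of YY1 lay in 10 of the 76 (13.2%) against 2.88%, and CCGGAAGT, an ETS site as bound by GABPA, in 5 (6.58%) against 4.0%. Atp5g2 held the NRF1 letters on both strands in 1 overlapping run, counted once, and the windows of Cox7a1 and Cox7a2 held none of these motifs. These matches describe letters in a window and are not evidence of binding.

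After doublet removal 9089 WT and 7720 MG53-TG cells remained, of which 12 barcodes were shared by both libraries. Median depth was higher in MG53-TG, 18818 against 15778 UMIs in epithelial-like cells of at most 25% mitochondrial UMIs. Cells fell into 28 clusters that were named from marker lists, and clustering used none of the members. Trim72, which encodes MG53, had 4693 UMIs in the epithelial-like cells of MG53-TG and 63 in those of WT. Although cells were sorted for EpCAM, 643 WT and 255 MG53-TG cells of at most 25% formed a T cell-like cluster. All mitochondrial genes counted in the files were members, so the mitochondrial share sorts cells by the members' own UMIs. For that reason the nuclear level is given as the UMIs of a gene or group per 1000000 non-mitochondrial UMIs (CPM), and mitochondrial members by their share of mitochondrial UMIs. A CPM of 3′ tags counts transcript ends, with no division by length.

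By CPM, nuclear members were highest in absorptive progenitor-like cells and lowest in Paneth-like cells, in both libraries. Their summed level in cells of at most 25% was 70763 CPM in the 845 absorptive progenitor-like cells of WT and 70601 in the 325 of MG53-TG, the highest of the 8 epithelial types. That type was cluster 5, which met 7 of 10 listed markers and 0 cycling markers, with Cyp4a10, G0s2, Aadac and Gsdmc4 among its top genes. Its name follows the marker list, and whether these cells are progenitors was not tested. Stem-like cells had 55992 and 53041 CPM, enterocyte-like cells 55850 and 58726, and tuft-like cells 54297 and 51791. The sums of these 3 types lay close together, and their order differed between the libraries. A sum weighs deep cells more, and with a mean over cells the log2 ratio of enterocyte-like over stem-like cells was -0.53 in WT and -0.23 in MG53-TG. The median cell had 32701 CPM in enterocyte-like and 55257 in stem-like cells of WT, and 49627 and 52393 in those of MG53-TG, so by cells enterocyte-like cells lay below stem-like cells in both libraries. Secretory progenitor-like cells followed at 43379 and 40864 CPM. Enteroendocrine-like cells had 26889 and 26842 CPM and goblet-like cells 25391 and 25177, a small step that both libraries shared in sums. By median cell it turned in WT, 22238 against 24144 CPM, and held in MG53-TG, 25145 against 24614. Paneth-like cells stood far below at 9786 and 9381 CPM. A CPM is a share of a cell's non-mitochondrial UMIs. Cluster 3 of this type, with defensin genes such as Defa21 and Defa22 among its top genes, had a median of 47845 UMIs. Amounts per cell were not compared. With the level of stem-like cells as the base, the log2 ratio in WT and MG53-TG was 0.34 and 0.41 in absorptive progenitor-like cells, -1.14 and -1.08 in goblet-like cells and -2.52 and -2.50 in Paneth-like cells. The genes of at least 50 CPM had medians of -0.04 and 0.01, -0.44 and -0.42, and -2.07 and -1.86 in the same comparisons, so the median gene was also far lower in Paneth-like cells. In enteroendocrine-like cells the log2 ratio of the nuclear level over stem-like cells was -1.06 and -0.98, while the median of all genes of that level was 0.14 and 0.17. Each of the 83 nuclear members of at least 50 CPM was lowest in Paneth-like cells in both libraries, as were 79.6% of all 2544 genes of that level in WT and 76.8% in MG53-TG.

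**Figure D1:**
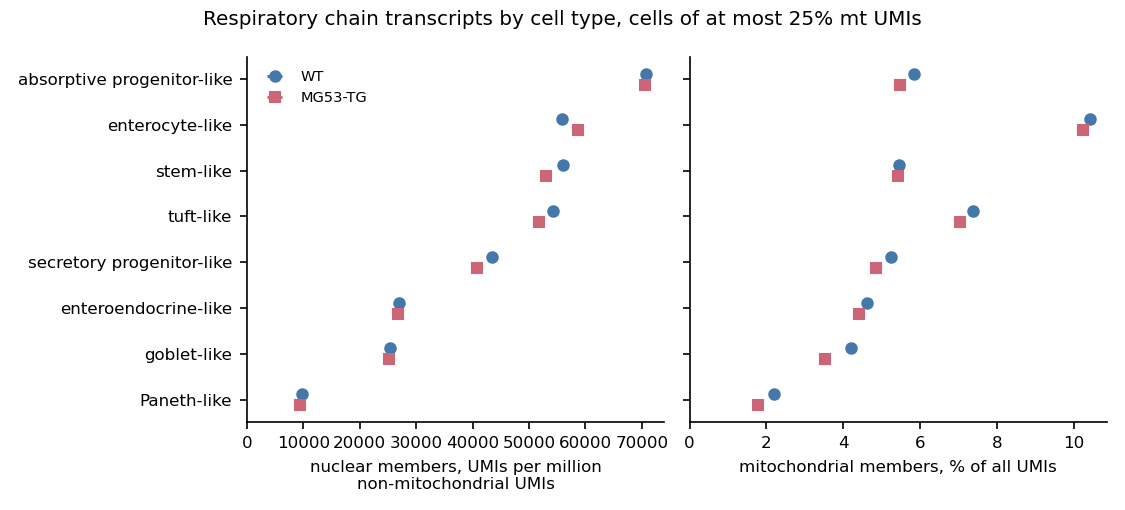
Summed level of the 92 nuclear members (left, CPM) and share of the 13 mitochondrial members (right, % of all UMIs) in cells of at most 25% mitochondrial UMIs, by marker-defined type. Points are 1 library each, and 95% counting intervals are narrower than the points; absorptive progenitor-like cells have the highest nuclear level and enterocyte-like cells the highest mitochondrial share.

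The mitochondrial members did not follow the nuclear order. Enterocyte-like cells had the highest mitochondrial share, 10.4% of UMIs in WT against 10.2% in MG53-TG. Tuft-like cells came next at 7.39% and 7.03%. Absorptive progenitor-like cells, which led in nuclear transcripts, had 5.83% and 5.48%, close to the 5.46% and 5.44% of stem-like cells. Goblet-like cells had 4.21% and 3.54%, and Paneth-like cells 2.19% and 1.77%. Mitochondrial UMIs per nuclear member UMI numbered 0.875 and 0.821 in absorptive progenitor-like cells of WT and MG53-TG, and 2.08 and 1.94 in enterocyte-like cells. The cap of 25% on the mitochondrial share limits this ratio. Of all enterocyte-like cells, 60.2% in WT (1915 of 3180, interval 58.5 to 61.9) and 73.1% in MG53-TG (2581 of 3531, interval 71.6 to 74.6) lay between 25 and 50%. In the other epithelial types that share ran from 0.342% in secretory progenitor-like to 5.67% in stem-like cells. Within 1 percentage point of the limit of 25% lay 111 WT and 83 MG53-TG barcodes.

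By role, with the core and accessory subunits of complex I apart, the ATP synthase and complex IV held the most UMIs in each of the 8 epithelial types. Both roles of complex I together exceeded complex IV in enteroendocrine-like cells of both libraries, with 937 and 6785 against 7017 CPM in WT, and in Paneth-like cells of MG53-TG. In absorptive progenitor-like cells of WT the ATP synthase subunits summed to 22086 CPM, complex IV to 20284, accessory subunits of complex I to 15832, complex III to 7641, core subunits of complex I to 2609, complex II to 1665 and assembly factors to 645. In sums the ATP synthase led in most types, but complex IV exceeded it in tuft-like cells, with 17112 against 15460 CPM in WT and 16145 against 14853 in MG53-TG, and in enterocyte-like cells of MG53-TG, with 18286 against 17974. The order of these pairs by a mean over cells is not given here. Tuft-like cells were uneven against stem-like cells. Their log2 ratio in WT and MG53-TG was 0.11 and 0.11 for accessory subunits of complex I, 0.12 and 0.11 for complex IV and 0.22 and 0.16 for assembly factors, but -0.64 and -0.63 for complex II and -0.52 and -0.54 for core subunits of complex I. For enterocyte-like over stem-like cells the ratio of sums was 0.18 and 0.32 for complex II and 0.11 and 0.29 for complex IV, whereas assembly factors stood at -0.93 and -0.86 and core subunits of complex I at -0.39 and -0.25. With a mean over cells complex II stood at -0.31 and 0.02, complex IV at -0.47 and -0.12, assembly factors at -1.34 and -1.17 and core subunits of complex I at -0.88 and -0.61. Complex IV thus turned its sign in both libraries and complex II in WT. Among the 83 nuclear members of at least 50 CPM, absorptive progenitor-like cells had the highest level for 64 in WT and 65 in MG53-TG, tuft-like cells for 16 and 14, enterocyte-like cells for 2 and 3 and stem-like cells for 1 in each. Of all 2544 genes of that level, 10.1% and 11.4% were highest in absorptive progenitor-like, 20.4% and 20.8% in tuft-like, 18% and 18.2% in enterocyte-like and 21.8% and 20.4% in stem-like cells.

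The most abundant members of each role showed this order with some departures. Cox4i1, the common form of subunit 4 of complex IV, had the highest level of all nuclear members in epithelial-like cells, 2084 and 1921 CPM in WT and MG53-TG. Cox8a, the common form of subunit 8, was highest in tuft-like cells at 3040 and 2985 CPM against 2023 and 1971 in stem-like cells. Cox6c, also of complex IV, had 2437 and 2178 CPM in tuft-like cells and 569.8 and 513 in goblet-like cells. Tuft-like cells thus led for both of these subunits in each library, and likewise for Ndufa13, an accessory subunit of complex I, at 827 and 799.9 CPM. Atp5b, the catalytic beta subunit of the ATP synthase, had 2132 and 1995 CPM in absorptive progenitor-like cells and 663 and 638 in goblet-like cells. Uqcrh, a small subunit of complex III, had 1661 and 1618 CPM in absorptive progenitor-like cells, and Uqcrq, another, had 1627 and 1724. The accessory subunit of complex I Ndufb9 had 1326 and 1382 CPM there, and the core subunits Ndufs7 and Ndufv2 had 535 and 571, and 522 and 514. For these 6 genes, from Atp5b to Ndufv2, absorptive progenitor-like cells lay above stem-like cells in both libraries. Assembly factors were mixed. Ndufaf8, which acts on complex I, had 159 and 165 CPM in absorptive progenitor-like and 141 and 137 in stem-like cells. Uqcc2, which serves the assembly of complex III, had 124 and 114 CPM in absorptive progenitor-like, 231 and 239 in tuft-like and 221 and 210.3 in enteroendocrine-like cells, and Uqcc3 had 77.8 and 69.2 CPM in absorptive progenitor-like and 159 and 172 in tuft-like cells.

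Of the 4 subunits of complex II, which also serves the citric acid cycle, Sdhb varied most over the types. Sdhb, the iron-sulfur subunit, had 647 and 678 CPM in absorptive progenitor-like cells of WT and MG53-TG, 581 and 617 in enterocyte-like, 437 and 423 in stem-like, 319 and 317 in tuft-like, 125 and 128 in goblet-like and 62.7 and 55.6 in Paneth-like cells. Its log2 ratio of enterocyte-like over stem-like cells was 0.41 and 0.54 in sums and -0.03 and 0.30 with a mean over cells. Sdha, the flavoprotein that binds succinate, had 372 and 370.1 CPM in absorptive progenitor-like and 339 and 346 in enterocyte-like cells. The membrane anchors Sdhc and Sdhd had 229.7 and 228 CPM, and 291 and 302, in enterocyte-like cells. For Sdha, Sdhc and Sdhd the ratio of sums in enterocyte-like over stem-like cells lay between -0.00 and 0.29 in both libraries. With a mean over cells the 4 subunits together stood at -0.31 in WT and 0.02 in MG53-TG. Sdhb was also among the 5 members of at least 50 CPM with the widest range of levels over the epithelial types. On the log2(CPM + 1) scale, with the UMIs of both libraries pooled, its range was 3.42, after Cox7a1 (4.79) and Cox6c (3.45). Ndufa9 of complex I (3.37) and Uqcrc2, a core protein of complex III, followed.

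Tissue-restricted forms were at low levels, with 1 exception. Cox7a1, known as the heart and muscle form of subunit 7a of complex IV, had 373 and 351 CPM in enterocyte-like cells of WT and MG53-TG. It had 196 and 195 CPM in absorptive progenitor-like cells, 36.8 and 36.5 in stem-like cells, 25.3 and 23.4 in goblet-like cells, 18.3 and 20.1 in tuft-like cells and 12.4 and 11.5 in Paneth-like cells. The level was thus highest in enterocyte-like cells in both libraries, with a log2 ratio over stem-like cells of 3.34 and 3.27 in sums and of 2.85 and 3.03 with a mean over cells. In WT barcodes of 1 to 100 UMIs, which hold free RNA, Cox7a1 had 83.2 CPM, above its level in stem-like cells, and the part of free RNA in the low levels was not tested. Cox7a2, the common form, had 1047 and 1122 CPM in enterocyte-like and 873 and 851 in stem-like cells, a ratio that stood at -0.34 and -0.02 with a mean over cells. Cox7a2l, a related protein of respiratory supercomplexes, had 364 and 409.5 CPM in enterocyte-like and 582 and 577 in stem-like cells. The genes of this family therefore had different orders over the same cells.

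Among the other forms, Cox6b2, known from testis, had 14.9 and 20.6 CPM in stem-like cells and 2.76 and 3.99 in enterocyte-like cells, while the common Cox6b1 had 1186 and 1108 CPM in stem-like and 1225 and 1273 in enterocyte-like cells. Atp5g1, Atp5g2 and Atp5g3 encode the same mature c subunit of the ATP synthase from different genes. Atp5g2 was highest in stem-like cells, at 1080 and 1052 CPM against 504 and 549.8 in enterocyte-like cells, and it was the single member of at least 50 CPM with its highest level in stem-like cells in both libraries. Atp5g3 had 953 and 899.9 CPM in stem-like and 1112 and 1181 in enterocyte-like cells, and Atp5g1 had 1581 and 1555 against 1202 and 1356. In sums Atp5g2 and Atp5g1 were thus lower and Atp5g3 higher in enterocyte-like than in stem-like cells, and with a mean over cells the ratio of Atp5g3 was -0.23 in WT and 0.05 in MG53-TG. Cox4i2, Cox8b, Cox8c, Cox7b2 and Ndufa4l2 were below the minimum of 30 UMIs, beside 2540 and 2366 CPM of Cox4i1 and 1373 and 1260 CPM of Ndufa4 in stem-like cells.

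**Figure D2:**
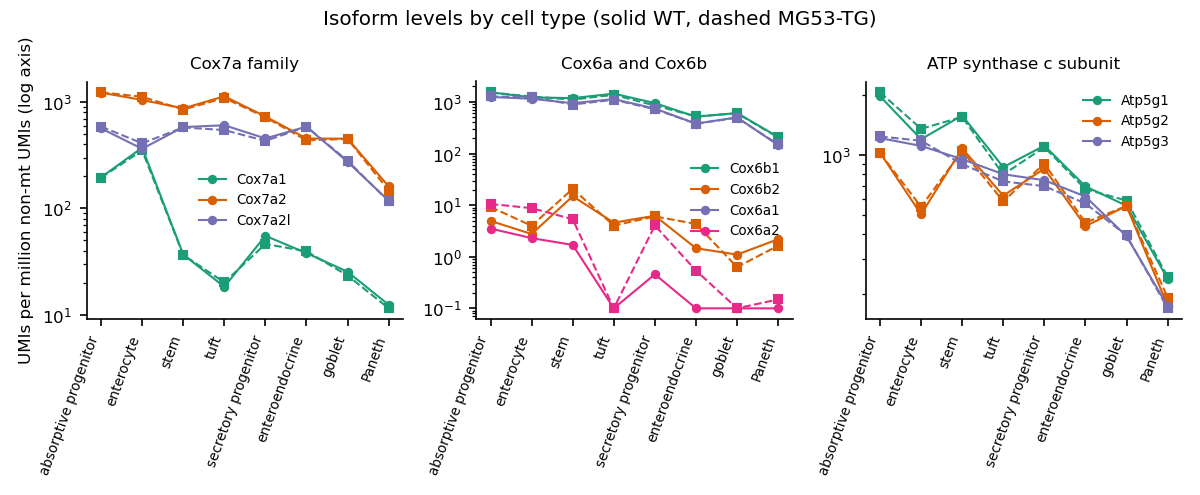
Level of alternative forms of 3 subunits in cells of at most 25% mitochondrial UMIs, by type, on a log axis in CPM, with levels under 0.1 drawn at 0.1. Solid lines and circles are WT, and dashed lines and squares are MG53-TG; Cox7a1 reaches 373 CPM in enterocyte-like cells of WT and Atp5g2 is highest in stem-like cells.

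Cox6a2, the heart and muscle form of subunit 6a of complex IV, was the single nuclear member that passed a log2 ratio of 0.32 between the libraries, the size of difference used for all counts below, on log2(CPM + 1). It had 136 UMIs in epithelial-like cells of WT and 326 in those of MG53-TG, 1.33 and 3.68 CPM, a log2 ratio of 1.47 (interval 1.18 to 1.77). The ratio was 1.65 in stem-like and 1.93 in enterocyte-like cells, with 2.30 and 8.76 CPM in that type. The common form Cox6a1 had 806 and 775 CPM in epithelial-like cells. Cox6a2 lies on chromosome 7 (128205435 to 128206387, minus strand, GRCm38). In WT free RNA it had 3.84 CPM, above its level in WT epithelial-like cells, and free RNA was not measured in MG53-TG, so the part of free RNA in this difference was not tested. The level of Cox6a2 rests on few UMIs in either library.

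In percentage points the composition of mitochondrial UMIs was much the same in all types, with mt-Co1 the main exception. Relative to their low shares, mt-Nd6, at 0.0383% to 0.0779% over types of WT, and mt-Atp8, at 0.245% to 0.412%, ranged more widely. In epithelial-like cells of at most 25%, mt-Atp6 took 18.6% and 17.8% of mitochondrial UMIs in WT and MG53-TG, mt-Co3 18.6% and 17.5%, mt-Co1 16.4% and 18.5%, mt-Co2 15% and 15.1% and mt-Cytb 11.3% and 11.0%. Subunits of complex I were lower, with mt-Nd1 at 6.5% and 5.78%, mt-Nd4 at 6.30% and 6.81%, mt-Nd2 at 3.78% and 3.84%, mt-Nd5 at 1.36% and 1.64%, mt-Nd3 at 1.0% and 0.787% and mt-Nd4l at 0.640% and 0.815%. The share of mt-Atp8 was 0.360% and 0.381%. mt-Nd6, the single protein gene on the light strand, took 0.0492% and 0.0598%. The largest shares were thus those of mt-Atp6, mt-Co3, mt-Co1 and mt-Co2 in both libraries. mt-Co1, the catalytic subunit of complex IV, took 21.2% and 23.5% in goblet-like cells against 15.1% and 16.3% in stem-like and 14.4% and 15.6% in absorptive progenitor-like cells. The other secretory types lay between goblet-like and stem-like cells. Tuft-like cells had 18.9% and 20.6%, secretory progenitor-like 17.4% and 19.8%, Paneth-like 17.2% and 19.6% and enteroendocrine-like 16.9% and 19.2%. Goblet-like cells had less mt-Nd1, 5.23% and 4.72% against 7.14% and 6.47% in stem-like cells, and less mt-Cytb, 10.1% and 9.49% against 12.1% and 11.9%. In the WT free RNA, mt-Co1 took 13.0%, mt-Co3 21.1% and mt-Atp6 21.1% of mitochondrial UMIs.

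Between the libraries the shares moved in the same direction in type after type. The share of mt-Nd3 was lower in MG53-TG in 9 of 9 types, the 8 epithelial types and T cell-like cells, with a median log2 ratio of -0.32 (range -0.42 to -0.24). mt-Nd4l was higher in 9 of 9 (median 0.41, range 0.28 to 0.73), as were mt-Nd5 (median 0.28), mt-Nd4 (median 0.12) and mt-Co1 (median 0.12). mt-Nd6, with a median of 0.32, and mt-Atp8, with 0.15, were also higher in 9 of 9, from low shares. mt-Co3 and mt-Atp6 were lower in 9 of 9, with medians of -0.09 and -0.07. mt-Nd1 and mt-Cytb were lower in 8 of 9, with medians of -0.13 and -0.05. mt-Co2 had a median of 0.01 and mt-Nd2 of -0.00. Genes of 1 complex thus moved apart, with mt-Nd3 lower and mt-Nd4l higher. The WT table was made with Cell Ranger 4 and that of MG53-TG with Cell Ranger 6.0.1, so that genotype, library and program version cannot be told apart. All types of a library share its preparation, so agreement over types is no replication.

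**Figure D3:**
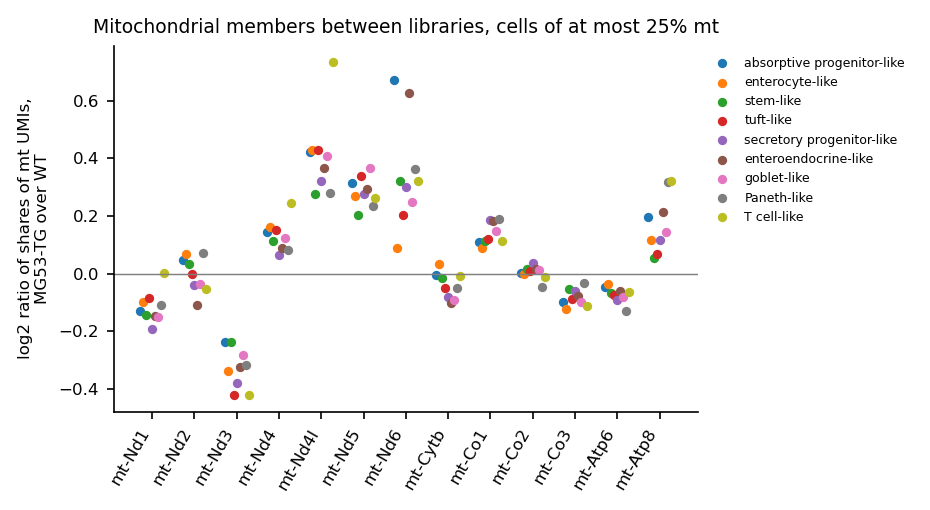
Log2 ratio of the share of each mitochondrial member among mitochondrial UMIs, MG53-TG over WT, in cells of at most 25%. Each point is 1 type, and the T cell-like cells are shown beside the 8 epithelial types; mt-Nd3 lies below 0 and mt-Nd4l, mt-Nd4, mt-Nd5 and mt-Co1 above 0 in 9 of 9 types.

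Between genotypes the summed nuclear members differed little, but in enterocyte-like, Paneth-like and enteroendocrine-like cells the value depended on how cells were weighted. In epithelial-like cells of at most 25% their sum was 44380 CPM in WT and 41187 in MG53-TG, a log2 ratio of -0.11 (interval -0.11 to -0.11). With each of the 8 types weighted equally the ratio was -0.03. Within types it ran from -0.09 in secretory progenitor-like to 0.07 in enterocyte-like cells, with -0.08 in stem-like, -0.00 in absorptive progenitor-like and enteroendocrine-like, -0.01 in goblet-like, -0.06 in Paneth-like and -0.07 in tuft-like cells. Among enterocyte-like cells of at most 25%, cluster 7, a cluster of low nuclear level, held 287 of 1265 in WT and 99 of 950 in MG53-TG, and the part of this mix in the 0.07 was not tested. For this type the ratio was 0.22 with a mean over cells, 0.23 with cells thinned to 1354 UMIs and -0.30 at 4000 to below 8000 UMIs, and the median cell had 32701 CPM in WT and 49627 in MG53-TG. The median Paneth-like cell had 6546 CPM in WT and 8142 in MG53-TG, and the median enteroendocrine-like cell 22238 and 25145. In stem-like, secretory progenitor-like and tuft-like cells the median cell was lower in MG53-TG. Of the 92 nuclear members, 1 was higher by more than 0.32, against 9.81% of all 14701 genes tested, and 0 were lower, against 2.37%. Among genes of at least 50 CPM, 0 of 83 members were higher, against 12.5%, and 0 were lower, against 2.59%. The median log2 ratio of these 83 members was -0.11, and that of all 2544 genes of that level 0.08. A median-of-ratios scaling, which sets that median to 0, moved the summed ratio to -0.18. With it 1 member was higher and 5 were lower by more than 0.32, against 5.97% and 4.51% of all genes. Among members of at least 50 CPM the lowest ratios were those of Atp5a1, the alpha subunit of the ATP synthase (-0.32, 943 and 755 CPM), Ndufc2 of complex I (-0.28), Uqcr11 (-0.27) and the complex III core proteins Uqcrc1 (-0.26) and Uqcrc2 (-0.26). Within types the ratio of Atp5a1 was -0.24 in stem-like, -0.21 in enterocyte-like and -0.14 in goblet-like cells. For Uqcrc2 the ratio was -0.09, -0.05 and -0.09 in those types. The highest among members of at least 50 CPM were Uqcc3 (0.15), Ndufa1 (0.07), Ndufa6 (0.04), Ndufv3 (0.02) and Atp5md (0.02), and Uqcc3 had -0.02 in stem-like, 0.05 in enterocyte-like and 0.01 in goblet-like cells.

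The classes of mitochondrial share were compared in enterocyte-like cells, which made up 1915 of the 2044 WT and 2581 of the 2674 MG53-TG epithelial-like cells of 25 to 50%. The study's own quality filter removed cells above 25% as low quality, so cells of 25 to 50% lay outside its analysis. Nuclear members were lower in that class, 28286 against 55850 CPM in WT and 26427 against 58726 in MG53-TG, log2 ratios of -0.98 (interval -0.99 to -0.97) and -1.15 (interval -1.16 to -1.15). The classes sat in different clusters. In WT, cluster 6 held 432 cells of at most 25% and 39 of 25 to 50%, and cluster 7 held 287 and 32, whereas cluster 9 held 58 and 539 and cluster 0 held 55 and 432. Within the 5 clusters of at least 50 cells in each class the WT ratio lay between -0.62 and 0.30. The direction also depended on depth. At 4000 to below 8000 UMIs, the range of 1110 of the 1915 WT and 1673 of the 2581 MG53-TG cells of 25 to 50%, the ratio was 0.18 and 0.36, and 26 and 6 of 82 members of at least 50 CPM were below 0. The counts that follow are over cells of every depth. Over all epithelial-like cells the ratios were -0.65 and -0.64, where a different mix of types entered each class. Mitochondrial UMIs were higher in that class by construction. In WT 78 of 92 members were lower by more than 0.32, against 22.7% of 10425 genes, and 1 was higher, against 47.9%. In MG53-TG 83 were lower, against 24.2% of 10744 genes, and 0 higher, against 49.0%. Among genes of at least 50 CPM, 69 of 80 members were lower in WT, against 30.1%, and 73 of 80 in MG53-TG, against 31.8%. In the same genes 0 members were higher, against 45.2% in WT and 46.6% in MG53-TG. The median member of at least 50 CPM stood at -1.06 in WT and -1.23 in MG53-TG, and the median of all such genes at 0.21 and 0.24. Complex IV was lowest, at -1.28 and -1.53, followed by accessory subunits of complex I (-1.01 and -1.17) and complex III (-0.93 and -1.05). Complex II stood at -0.72 and -0.82.

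Single members ranged widely, in nearly the same order in both libraries. The lowest was Atp5g2, with 503.6 CPM at most 25% in WT, and log2 ratios of -2.38 in WT and -2.89 in MG53-TG. Cox5a of complex IV, named after its value was seen, followed at -2.21 and -2.58, with Ndufa4, now placed in complex IV, at -2.07 and -2.42. The accessory subunits of complex I Ndufb5 (-2.06 and -2.23), Ndufc2 (-2.05 and -2.44) and Ndufa8 (-1.96 and -2.33) and the complex IV subunit Cox8a (-1.87 and -2.42) were also far down. At the other end Uqcrfs1, the Rieske iron-sulfur protein of complex III, had 0.13 and 0.17, Uqcrc1 -0.04 and 0.06, Atp5d, the delta subunit of the ATP synthase, -0.02 and -0.01, and Atp5b -0.09 and -0.14. Members of 1 complex thus lay at both ends, Atp5b with Atp5d and Atp5g2 in the ATP synthase. Cox7a1 had -1.18 and -1.51 in enterocyte-like cells but 0.59 and 0.28 over all epithelial-like cells. Within the c subunit genes Atp5g1 had -1.87 and -2.23 and Atp5g3 -0.66 and -0.91. Over the 80 members of at least 50 CPM the ratios of the libraries had a Spearman correlation of 0.99, and over all 2772 genes of that level 0.98. This is a description across genes, which are not independent, of cells prepared and classed in the same way.

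**Figure D4:**
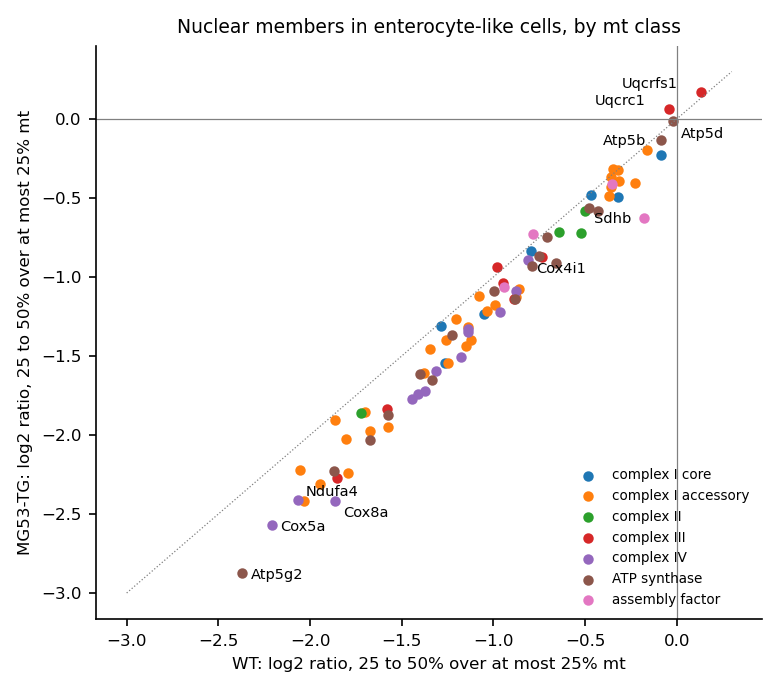
Log2 ratio of the level in cells of 25 to 50% mitochondrial UMIs over cells of at most 25%, for nuclear members of at least 50 CPM in enterocyte-like cells of WT (horizontal axis) and MG53-TG (vertical axis), coloured by complex. The dotted line marks equal ratios; Uqcrfs1, Uqcrc1, Atp5d and Atp5b lie near 0 and Atp5g2 lies lowest at -2.37 and -2.87 with a pseudocount of 1 CPM.

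The nuclear level moved with depth, and so did the sign of the class difference. In enterocyte-like cells of at most 25%, the Spearman correlation of a cell's nuclear level with its non-mitochondrial UMIs was 0.80 over 1265 WT and 0.81 over 950 MG53-TG cells, and 0.79 and 0.79 against total UMIs when every cell was thinned to 1354 UMIs. The level rose from 13593 CPM in WT cells below 2500 UMIs to 22921 at 4000 to below 8000, 50983 at 8000 to below 16000 and 66586 at 16000 or more. MG53-TG cells gave 14811, 18669, 46394 and 65434 CPM. Cells of 25 to 50% rose less, from 15361 to 48103 CPM in WT and from 15687 to 38412 in MG53-TG. The class of 25 to 50% thus had log2 ratios of -0.56 and -0.58 at 8000 to below 16000 UMIs and of -0.47 and -0.77 at 16000 or more, the latter from 27 and 24 cells, but of 0.18 and 0.36 at 4000 to below 8000 UMIs. At 2500 to below 4000 UMIs the class of 25 to 50% had 19263 against 15281 CPM in WT, and in MG53-TG it had 15416 against 15059, with counting intervals that overlapped. The difference between genotypes in enterocyte-like cells of at most 25% also turned, from 0.07 over all depths to -0.30, -0.14 and -0.03 in the ranges from 4000 UMIs up, from shallow to deep. Below 2500 UMIs and at 2500 to below 4000 the counting intervals of the libraries overlapped. Cells of at most 25% were deeper in MG53-TG, with a median of 15404 UMIs against 7288.

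**Figure D5:**
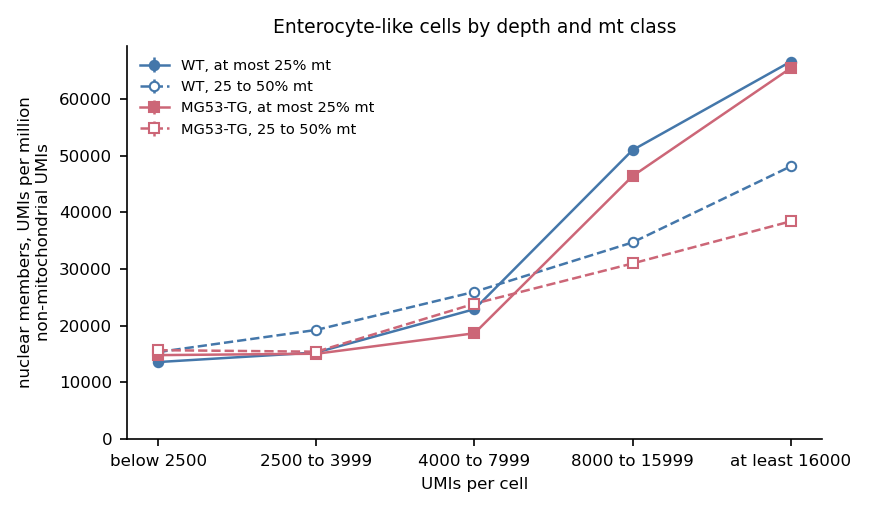
Summed level of nuclear members in enterocyte-like cells by UMIs per cell, for WT (blue circles) and MG53-TG (red squares), in cells of at most 25% (filled, solid) and 25 to 50% mitochondrial UMIs (open, dashed), with 95% counting intervals. At 4000 to below 8000 UMIs cells of 25 to 50% lie above, 25982 against 22921 CPM in WT, and from 8000 UMIs up they lie below.

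Malat1 and the genes of the cytosolic ribosome moved along the same axis in opposite directions. At most 25%, enterocyte-like cells below 2500 UMIs had 51103 CPM of the nuclear-retained RNA Malat1 in WT and 67709 in MG53-TG, and cells of 16000 or more had 8125 and 9113. Genes of the cytosolic ribosome went from 18764 and 16959 CPM to 131665 and 128453. Among clusters, cluster 6 had 68069 and 67637 CPM of nuclear members at a median of 19354 and 23238 UMIs, and cluster 7 had 14878 and 13938 CPM at 3505 and 4517 UMIs, although 10.2% and 10.3% of WT UMIs in these clusters were mitochondrial. A low nuclear level therefore also occurred in cells of low mitochondrial share. Within single clusters with at least 50 cells of each class, the class difference in WT was -0.21 in cluster 0, -0.51 in cluster 1, -0.62 in cluster 2 and -0.35 in cluster 17, but 0.30 in cluster 9. In MG53-TG it was -0.70 in cluster 1, -0.78 in cluster 2 and -0.95 in cluster 17. The order of members was compared with that over all enterocyte-like cells, which include the same cells. Ratios of 82 members within clusters 1 and 2 had Spearman correlations of 0.93 to 0.96, and those at 4000 to below 8000 UMIs 0.79 in WT and 0.52 in MG53-TG. Uqcrfs1 was positive at 4000 to below 8000 UMIs, by 0.42 and 0.82, at 8000 to below 16000 UMIs, by 0.26 and 0.18, at 16000 or more, by 0.42 and 0.39, and within cluster 1, by 0.26 and 0.59, and it stood at -0.04 and -0.01 within cluster 2. Atp5g2 was -1.72 and -1.92 at 8000 to below 16000 UMIs and -0.23 and 0.25 at 4000 to below 8000. In WT free RNA nuclear members had 30696 CPM and mitochondrial members 14.1% of UMIs. The part of depth, free RNA, Malat1 and ribosomal protein gene levels in the class difference was not tested.

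Gene groups outside the rule were set beside the members, by the number past 0.32 and the median log2 ratio of 25 to 50% over at most 25% in enterocyte-like cells of WT and MG53-TG. Of all genes tested, 22.7% in WT and 24.2% in MG53-TG were lower and 47.9% and 49.0% higher in these contrasts. For the mitochondrial ribosome, which translates the mitochondrial members, 71 and 76 of 78 genes were lower and 1 higher in each, with medians of -0.97 and -1.14. For the cytosolic ribosome 85 of 91 and 85 of 92 were lower and 4 and 6 higher, with medians of -1.76 and -2.10, below those of the nuclear members. In the citric acid cycle 10 of 13 were lower and 3 higher in each library, namely Cs (0.72 and 0.80), Ogdh and Dlst, with medians of -0.79 and -0.87. Of 15 electron carriers and partners such as Cycs, 9 and 10 were lower and 2 and 1 higher, and of 25 assembly factors outside the rule 14 and 12 were lower and 3 higher in each. Of 17 genes of mitochondrial DNA expression 7 and 9 were lower and 5 and 4 higher, and of 12 glycolysis genes 5 and 6 were lower and 3 higher in each. Mitochondrial stress genes had 4 of 6 lower in each library, with 0 higher. Regulators of mitochondrial biogenesis had 5 of 7 higher and 0 lower in each, beside the 47.9% and 49.0% of all genes that were higher, with medians of 0.65 and 0.74. Esrra, a nuclear receptor that drives respiratory genes and one of these regulators, had 223 against 117 CPM in WT. Malat1 and Neat1 were both higher, with medians of 1.47 and 1.74. Between genotypes, in epithelial-like cells of at most 25%, the medians of these lists lay between -0.15 for mitochondrial stress and 0.11 for biogenesis regulators, apart from 0.40 for Malat1 and Neat1. There 1 gene each of the citric acid cycle, mitochondrial DNA expression and the cytosolic ribosome was lower, 4 of 14 glycolysis genes were higher and 0 lower, and in the mitochondrial ribosome 0 of 78 passed that size, beside 9.81% of all genes higher and 2.37% lower.

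Features of the transcripts were set against the class ratio across genes. Over 79 of the 80 members of at least 50 CPM, those with a GENCODE M21 transcript, the GC content had a Spearman correlation with the ratio of 0.27 in WT and 0.28 in MG53-TG, and transcript length of 0.16 and 0.17. Over 2745 genes of at least 50 CPM GC content gave 0.02 and 0.02, but length gave 0.60 and 0.61, so short transcripts in general were lower in cells of 25 to 50%. The 26 members of lowest GC content (38.4% to 49.0%) had a median of -1.40 for the mean of both libraries, and the 27 of highest GC content (53.9% to 60.4%) of -0.85, with single members from -2.62 to 0.01 in the latter. Both correlations were weak among the members, although the range of ratios was wide. For each gene the transcript with the longest coding sequence was used, and among equals the longest, which gave Atp5g1 4715 bases.

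Cell by cell, in cells of at most 25%, nuclear and mitochondrial members had no common relation over types. The Spearman correlation of the nuclear level with the mitochondrial share was 0.67 in the 360 WT and 0.50 in the 202 MG53-TG Paneth-like cells, where the level also ran against depth at -0.41 and -0.47. Paneth-like cells pooled cluster 3, with medians of 47845 UMIs and 0.90% mitochondrial, and cluster 4, with 15084 UMIs and 2.23%. The part of this mix in the correlation was not tested. The correlation was -0.39 and -0.33 in enteroendocrine-like cells, -0.30 and -0.28 in tuft-like cells and -0.18 and -0.19 in stem-like cells. Goblet-like cells gave 0.07 and 0.04. In enterocyte-like cells it was 0.12 in WT and -0.31 in MG53-TG. Cells of a type share their library and both measures share a cell's total, so these values are descriptions.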

How the data were processed

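The authors made 10x Genomics 3′ v3 libraries from sorted cells, 1 of each genotype, and deposited tables of UMI counts per gene and barcode; per the file headers the WT table came from Cell Ranger 4 and the MG53-TG table from Cell Ranger 6.0.1, and the submitters' processing notes name Seurat and mm10. The WT table listed 2005718 barcodes with 158455748 UMIs, and that of MG53-TG held 12361 barcodes, each of 500 UMIs or more, with 128227881 UMIs. Barcodes of at least 1354 UMIs, 200 genes and at most 50% mitochondrial UMIs were kept (9539 and 7850), and 450 and 130 were removed as doublets by their Scrublet scores. Above 50% lay 1617 and 1705 barcodes. Counts were clustered with scanpy 1.11.5 (2000 variable genes without members, 30 components, 15 neighbours, Leiden resolution 1, seed 0, no integration; Python 3.11.15), and clusters were named from marker lists. Levels are summed UMIs per 1000000 non-mitochondrial UMIs. A gene was counted as different past a log2 ratio of 0.32 on log2(CPM + 1), and single ratios carry no pseudocount. With 1 library in each group there was no test, and exact 95% Poisson, binomial and conditional binomial intervals (scipy 1.17.1) cover counting error only, since cells are not replicates. The scripts were tested on simulated data. Genes named were the 2 highest of each role, complex II, the mitochondrial members, alternative forms, the 5 at each end of both contrasts over epithelial-like cells and the 5 of widest range over types. Members, gene lists (mitochondrial and cytosolic ribosome, citric acid cycle, mitochondrial DNA expression, biogenesis regulators, electron carriers, assembly factors, glycolysis, mitochondrial stress, nuclear-retained RNA) and tests were chosen with earlier results of these data known. Alternatives covered the denominator, per-cell means, doublets, UMI minimum, cluster resolution, type weights, thinning, scaling, fold and depth ranges. Promoters are from RefSeq (GRCm38.p6) and transcripts from GENCODE M21. Protein sequences were not used here.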

Additional observations from a re-analysis of the deposited data

Results flagged for a closer look

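Between the classes of mitochondrial share, the enterocyte-like cells gave opposite differences between the genotypes when summed over all depths. The summed level of nuclear members, MG53-TG over WT, had a log2 ratio of 0.072 in cells of at most 25% and of -0.098 in cells of 25 to 50%. With 1 library of each genotype the difference between these ratios was not tested. The first ratio was -0.30, -0.14 and -0.025 in cells of 4000 to below 8000, 8000 to below 16000 and at least 16000 UMIs. In shallower cells the levels were 14811 CPM in MG53-TG and 13593 in WT below 2500 UMIs, and 15059 and 15281 at 2500 to below 4000, with counting intervals that overlapped in both ranges. In cells of 25 to 50% the levels of MG53-TG and WT were 15687 and 15361 CPM below 2500 UMIs, 15416 and 19263 at 2500 to below 4000, 23888 and 25982 at 4000 to below 8000, 30983 and 34696 at 8000 to below 16000, and 38412 and 48103 at 16000 or more. Below 2500 UMIs the counting intervals overlapped in cells of 25 to 50% as well. From 4000 UMIs up MG53-TG lay below WT in both classes, and in shallower cells of at most 25% the sign was not set. Without a split by depth, the ratio at most 25% was 0.22 with a mean over cells and 0.23 with thinning. Median depth at most 25% was 15404 UMIs in MG53-TG against 7288 in WT. The part of depth was not tested beyond these values.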

How the results depend on the processing

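In epithelial-like cells the log2 ratios of the summed nuclear level between genotypes (MG53-TG over WT), between classes (25 to 50% over at most 25%) and between types (enterocyte-like over stem-like) were -0.11 (genotypes at most 25%), -0.096 (genotypes at 25 to 50%), -0.65 (classes in WT), -0.64 (classes in MG53-TG), -0.0037 (types in WT) and 0.15 (types in MG53-TG). The values below are those that moved beyond the counting interval. With all UMIs as the denominator they were -0.10 (genotypes at most 25%), -0.11 (genotypes at 25 to 50%), -1.28 (classes in WT), -1.28 (classes in MG53-TG), -0.081 (types in WT) and 0.072 (types in MG53-TG). With a mean over cells they were -0.14 (genotypes at most 25%), -0.014 (genotypes at 25 to 50%), -0.75 (classes in WT), -0.62 (classes in MG53-TG), -0.53 (types in WT) and -0.23 (types in MG53-TG). With cells thinned to 1354 UMIs they were -0.14 (genotypes at most 25%), -0.023 (genotypes at 25 to 50%), -0.74 (classes in WT), -0.62 (classes in MG53-TG), -0.54 (types in WT) and -0.22 (types in MG53-TG). With doublets kept they were -0.12 (genotypes at most 25%), -0.11 (genotypes at 25 to 50%), -0.65 (classes in WT), -0.047 (types in WT) and 0.10 (types in MG53-TG). With a minimum of 500 UMIs they were -0.12 (genotypes at most 25%), -0.63 (classes in MG53-TG), -0.24 (types in WT) and -0.058 (types in MG53-TG). At a Leiden resolution of 0.5 they were -0.020 (types in WT) and 0.13 (types in MG53-TG). With median-of-ratios scaling they were -0.18 (genotypes at most 25%) and -0.15 (genotypes at 25 to 50%). With each type weighted equally the ratio of genotypes at most 25% was -0.025, and this weighting was not run at 25 to 50%, where 1 type alone reached 50 cells in both libraries. The order of enterocyte-like and stem-like cells in MG53-TG reversed with a mean over cells, thinning or the lower minimum. The number of members past 0.32 between genotypes was 1, Cox6a2, where 12.2% of all genes passed. It was 3 with a mean over cells (2 lower, 13.2% of genes), 2 with doublets kept (1 lower, 11.8%), 2 with a minimum of 500 UMIs (1 lower, 12.3%), 7 with thinning (6 lower, 27.8%), 6 with median of ratios (5 lower, 10.5%) and 2 with equal types (0 lower, 7.6%). The share of mt-Co1 in goblet-like less stem-like cells of WT was 6.15 percentage points, 7.37 with a mean over cells and 8.20 with free RNA in place of stem-like cells. Alternatives chosen after seeing the data were run in enterocyte-like cells. The ratio of genotypes at most 25% was 0.072, and 0.22 with a mean over cells, 0.23 with thinning, 0.0057 with median of ratios, and -0.30, -0.14 and -0.025 at 4000 to below 8000, 8000 to below 16000 and at least 16000 UMIs. The ratio of classes in WT was -0.98, and -0.64 with a mean over cells, -0.63 with thinning and 0.18, -0.56 and -0.47 in those depth ranges. The ratio of classes in MG53-TG was -1.15, and -0.87 with a mean over cells, -0.89 with thinning and 0.36, -0.58 and -0.77 in those depth ranges. For enterocyte-like over stem-like cells, a mean over cells is listed for complex II, complex IV, core subunits of complex I, assembly factors, Sdhb, Cox7a1, Cox7a2 and Atp5g3. Among these it turned the sign of complex II in WT (-0.31), complex IV in WT (-0.47) and MG53-TG (-0.12) and Atp5g3 in WT (-0.23). It also turned that of Cox7a2 in WT (-0.34) and MG53-TG (-0.020) and of Sdhb in WT (-0.032). Other roles and members are not listed here, so the list of turned signs is partial. The cause of these moves was not tested. No paired analysis was possible because each genotype had 1 library. Depth limits Cox6a2 and the other members of few UMIs most.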

Other observations

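Cyc1, the cytochrome c1 subunit of complex III whose symbol lies outside the rule, had 346.0 CPM in epithelial-like cells of WT and 293.3 in those of MG53-TG, a log2 ratio of -0.24. Its ratio of 25 to 50% over at most 25% in enterocyte-like cells was -0.24 and -0.31. Cycs, the gene of cytochrome c, which carries electrons from complex III to complex IV, had 929 CPM in enterocyte-like cells of at most 25% of WT, where stem-like cells had 528, and 1078 in MG53-TG, where stem-like cells had 551. In the class of 25 to 50% Cycs stood at -0.96 and -1.11. Ppargc1a, a coactivator of mitochondrial biogenesis, had 88.1 and 89.3 CPM in enterocyte-like cells of at most 25% and 148 and 161 in those of 25 to 50%, and 13.7 and 11.7 in stem-like cells.

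The share of mt-Co1 among mitochondrial UMIs also differed between the classes. Over all enterocyte-like cells it was 15.5% at most 25% and 14.5% at 25 to 50% in WT, and 16.5% and 14.8% in MG53-TG. In those of 4000 to below 8000 UMIs it was 19.9% and 14.4% in WT, and 21.8% and 14.6% in MG53-TG, a larger gap. In goblet-like cells of WT it was 21.2% and 19.0% with no matching of depth, where 59 cells lay at 25 to 50% and median depth was 14366 and 2202 UMIs.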
